A study of Mus musculus with 36 samples.

Results

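The genes of 4 families of proteins that carry out or steer pre-mRNA splicing were followed through a Chd8 allelic series in the mouse embryonic forebrain. They are the heterogeneous nuclear ribonucleoproteins (hnRNPs), the serine/arginine-rich (SR) proteins, the Sm and other proteins of the small nuclear ribonucleoproteins (Snrp genes) and the subunits of splicing factor 3a and 3b (SF3). Members were taken by symbol, as every gene whose name starts with Hnrnp, Srsf, Snrp, Sf3a or Sf3b, with a mean of at least 10 counts in a library and leaving out Snrpn and pseudogenes. Of 46603 genes in the count tables, 56 had such a symbol, 4 were left out by name and 1 was below the minimum, which left 51 members: 20 hnRNP, 11 SR, 11 Snrp and 9 SF3 genes.

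CHD8 is a chromatin remodeller, and heterozygous loss of the gene in people is linked to autism. The study asked how forebrain transcription changes as the Chd8 dose is lowered step by step, and sequenced mRNA from C57Bl/6J embryos. At E12.5, neocortices of Chd8+/+, Chd8+/-, Chd8neo/neo and Chd8neo/- embryos were used, with 3 libraries a genotype and 1 embryo in each. The neo allele carries a neomycin cassette in an intron that lowers its expression, and the minus allele was made by germline deletion of a floxed exon. At E10.5, telencephalic vesicles of Ctrl embryos, which carried floxed alleles without Cre (Chd8f/f or Chd8 f/+ in the labels), and of cKO embryos (sox1-Cre; Chd8f/f) were used, with 3 libraries a group and the RNA of 2 embryos pooled in each. Sox1-Cre acts in early neural progenitors, so vessels, blood and mesenchyme in the same vesicles kept their floxed Chd8.

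As background, introns are removed by the spliceosome, in which small nuclear RNAs are packed with a ring of Sm proteins. The U2 particle, through its SF3A and SF3B complexes, holds the branch point of the intron. SR proteins bind exons and mostly promote the use of nearby splice sites, hnRNPs often act against them, and many genes of both kinds limit their own level by splicing in an exon that sends the transcript to nonsense-mediated decay. Neural progenitors express these genes at high level, and many exons switch as neurons form.

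Libraries held 38774591 to 61051667 counts each at E12.5 and 49632937 to 68488879 at E10.5. Levels are given as CPM, counts scaled to the size of the library. In Chd8+/+, Chd8 itself was measured at 237.1, 234.6 and 239.5 CPM. The Chd8+/- libraries had 165.3, 170.2 and 164.6 CPM, those of Chd8neo/neo 213.1, 202.5 and 211.1 CPM, and those of Chd8neo/- 158.4, 146.6 and 142.1 CPM. It was at 160, 168 and 183.6 CPM in Ctrl and at 120.5, 125.3 and 115.8 CPM in cKO, so that every mutant library was below its controls. The paper reports that CHD8 protein at E12.5 was lower in Chd8neo/neo than in Chd8+/-. It reports the same for Chd8 transcripts by quantitative RT-PCR, in neocortices of E10.5 or younger, before the E12.5 stage counted here. It also found transcripts spliced into the cassette. Counts over the whole gene do not separate these, or transcripts without the floxed exon, so they do not rank the Chd8 dose. The forebrain markers Emx1, Emx2 and Lhx2 were detected in all 18 libraries. Markers are given as higher or lower where the adjusted p in edgeR's test was under 0.05. Over all genes tested, 3.71% were higher and 4.45% lower in Chd8neo/neo, 5.48% and 5.99% in Chd8neo/-, and 5.75% and 5.70% in cKO. In Chd8neo/neo, 3 of 8 neuronal markers were lower, with a summed level of 2865 to 3358 CPM against 3492 to 4171 CPM in Chd8+/+, while 2 of 8 radial glia and 1 of 5 intermediate progenitor markers were higher and 1 of 5 endothelial markers was lower. In Chd8neo/-, 2 of 8 neuronal markers were lower (summed level 3188 to 3592 CPM), and 1 of 6 erythroid markers was higher, with sums of 2839 to 4273 CPM against 2321 to 2712 CPM. In cKO, 2 of 5 mesenchyme and meninges markers were higher, with a summed level of 709.3 to 902.2 CPM against 565.4 to 659.6 CPM in Ctrl. There, 1 of 5 microglia and macrophage markers (22.13 to 23.9 against 16.98 to 20.32 CPM summed) and 1 of 5 endothelial markers (184.6 to 226.6 against 175.1 to 185.9 CPM) were also higher, and 1 of 7 tested neuronal markers was lower. The part of these shifts in the results on splicing genes was not tested, and in whole tissue fewer cells of a type and less RNA per cell cannot be told apart. By Xist and Y-linked counts, Chd8+/+ replicate 3, Chd8+/- replicate 1 and Chd8neo/neo replicates 1 and 2 were female, while the other E12.5 embryos, all 3 of Chd8neo/- included, were male. At E10.5, Y-linked counts were high in Ctrl replicate 2, lower in the 3 cKO pools and near 0 in the other Ctrl pools.

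The 51 genes were a sizeable part of the transcriptome. They took 2.15% to 2.28% of all counts at E12.5, 2.64% to 2.75% in Ctrl and 2.40% to 2.51% in cKO, where the ranges of the E10.5 groups did not overlap. The highest CPM of each family at E12.5 belonged to Hnrnpa2b1, a splicing and RNA-transport factor (2069 ± 30.32 CPM in Chd8+/+, SD, n = 3), Srsf1, the founding SR protein (883.7 ± 36.61 CPM), Sf3b1, the large SF3B subunit that clamps the branch point (696.1 ± 21.52 CPM), and Snrpb, a core Sm protein (184.6 ± 10.27 CPM). Scaled to length, Hnrnpa1, a repressor of exon inclusion, was highest in Chd8+/+ and in Ctrl, at 1004 ± 53.62 and 1145 ± 61.14 CPM per kb. Srsf12 was lowest in both, at 2.61 ± 0.239 and 1.20 ± 0.130 CPM per kb.

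The younger tissue held more of these transcripts. On a scaling over all 18 libraries, 39 of 51 members were higher in every E10.5 Ctrl library than in every E12.5 Chd8+/+ library and 2 were lower, while 36.4% of all 19565 genes were higher in this way and 34.4% were lower. The median log2 ratio of E10.5 to E12.5 was 0.29 over the members and 0.02 over all genes. All 11 Snrp genes were above, with a median log2 ratio of 0.74, against 9 of 11 SR genes (0.32), 15 of 20 hnRNP genes (0.19) and 4 of 9 SF3 genes (0.08). The 2 members below were Srsf12 (log2 ratio -1.13) and Hnrnpul1, a DNA-damage linked hnRNP (-0.40). Stage, dissected region, pooling and sequencing run changed together and cannot be told apart.

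**Figure D1:**
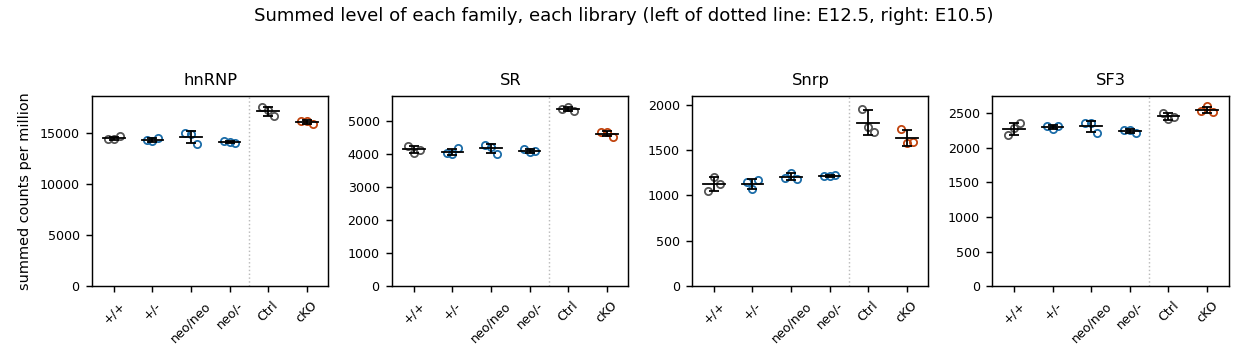
Summed level of each family in CPM (vertical axis, from 0) in each library, by group, with bars for the mean and SD of 3 libraries. Snrp sums were 1047 to 1202 in Chd8+/+, 1178 to 1251 in Chd8neo/neo and 1211 to 1230 in Chd8neo/- on the left of the dotted line, and on the right SR sums were 5298 to 5420 in Ctrl and 4521 to 4681 in cKO.

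Few members passed the test at E12.5. A gene was called when its adjusted p in edgeR's quasi-likelihood test was under 0.05. In Chd8+/- against Chd8+/+, edgeR called 0 of 51 members, beside 0.0213% of all 18810 genes tested. In this comparison 1 member had an unadjusted p under 0.05, beside 1190 of all 18810 genes. DESeq2 called 0 members, and the fold changes lay between -0.12 and 0.09 on the log2 scale. In Chd8neo/neo, 3 members were called against a background of 8.16%, with 2 higher (3.71% of all genes) and 1 lower (4.45%). In Chd8neo/-, 3 members were called against 11.5%, with 1 higher (5.48%) and 2 lower (5.99%). These counts depended on single libraries, and so did the share of all genes called. The Chd8neo/neo count was 1 without Chd8neo/neo replicate 1 or 2, 6 without Chd8neo/neo replicate 3 and 5 without Chd8+/+ replicate 3. Of all genes, 2.96%, 2.28%, 13.7% and 4.19% were called in these fits, in that order. The Chd8neo/- count was 0 without any 1 of the 3 Chd8neo/- replicates, 1 without Chd8+/+ replicate 3, and 5 without Chd8+/+ replicate 2 or Chd8neo/neo replicate 3. There, 5.51%, 5.33% and 6.24% of all genes were called without Chd8neo/- replicate 1, 2 and 3. The shares were 6.3%, 8.06% and 13.5% for the other libraries, in the order named. Both comparisons use the same Chd8+/+ libraries.

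At E10.5, 8 of 51 members (15.7%) were lower in cKO than in Ctrl. Of all 18435 genes tested, 5.70% were called lower and 5.75% higher, 11.4% in either direction. edgeR called 0 members higher, 4 had a higher level with an unadjusted p under 0.05, and DESeq2 called 1 (Sf3a1). In either direction 21 members had such a p, beside 5049 of all 18435 genes. The count of 8 fell to 2 without cKO replicate 2 or without cKO replicate 3 (Srsf5 and Srsf6 in each case), and to 5 without cKO replicate 1 or Ctrl replicate 3. The share of all genes called fell too, to 2.87%, 4.4%, 8.81% and 5.04% in that order. Over all 51 members, 41 had a negative fold change in cKO and the median was -0.06 on the log2 scale, against 0.00 over all genes, while 35 were positive in Chd8neo/neo (median 0.06) and 33 in Chd8neo/- (median 0.04). The E12.5 medians rested on single libraries: that of Chd8neo/neo was 0.03 without Chd8+/+ replicate 1 or Chd8neo/neo replicate 1 or 2, and that of Chd8neo/- was 0.01, with 28 of 51 positive, without Chd8+/+ replicate 2 and 0.02 without Chd8+/+ replicate 1 or Chd8neo/- replicate 1 or 2. Between libraries of 1 group the median over the members had an SD of 0.03.

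Genotypes below wild type were also compared with each other. Against Chd8+/-, Chd8neo/neo showed 1 called member, the lower Srsf12 described below (5.28% of all genes called, 3.28% lower). The count was 0 without Chd8+/- replicate 1 or Chd8neo/neo replicate 1 or 2, 2 without Chd8+/+ replicate 1 and 3 without Chd8neo/neo replicate 3. The share of all genes was 0.324%, 0.314% and 0.121% where the count was 0. It was 5.74% where the count was 2 and 11% where it was 3. Chd8neo/- against Chd8+/- gave 0 called members by edgeR, beside 5.43% of all genes. An unadjusted p under 0.05 was found for 11 members and for 4232 of all 18810 genes. DESeq2 called 1 member (Sf3b1) and 12.3% of the genes it tested. Chd8neo/- against Chd8neo/neo gave 0 by edgeR, beside 0.0159% of all genes. Here 5 members had an unadjusted p under 0.05, beside 1585 of all 18810 genes. DESeq2 called 0 members and 0.167% of the genes it tested.

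**Figure D2:**
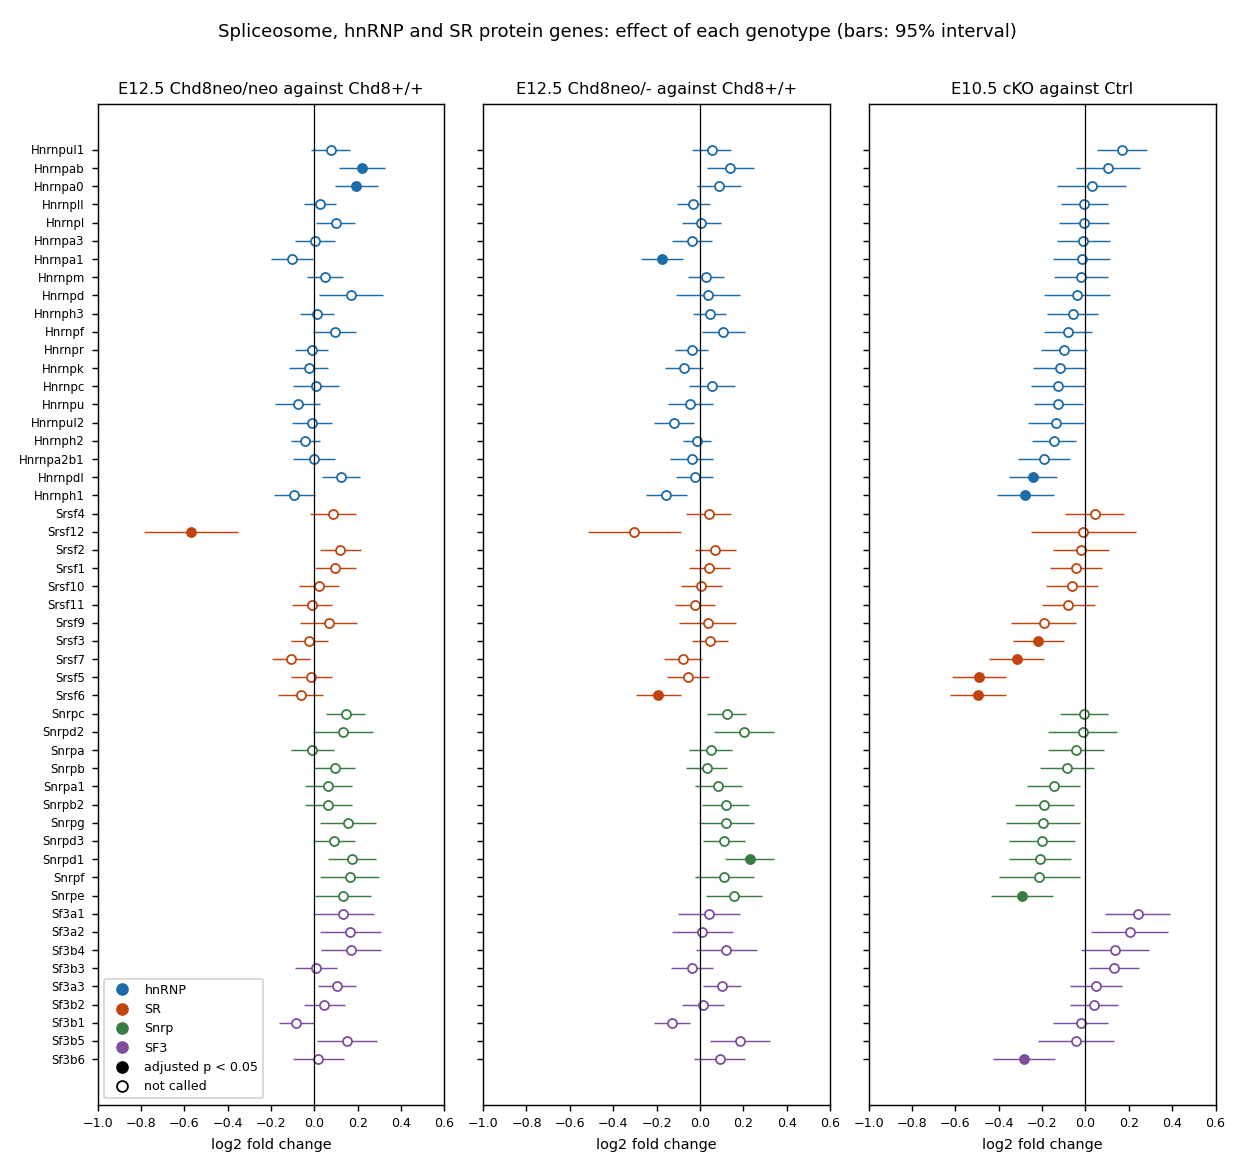
Log2 fold change (horizontal axis) of each of the 51 members, 1 row a gene coloured by family, in Chd8neo/neo, Chd8neo/- and cKO against their controls, with bars for the 95% interval and filled points for called genes. Filled points number 3, 3 and 8, all 8 in cKO lie below 0, and the 11 Snrp genes lie above 0 in Chd8neo/- and below 0 in cKO.

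Among the SR genes, 4 of 11 were lower in cKO telencephalic vesicles, where 5.70% of all genes tested were lower. Srsf5, an SR protein that activates exons through their enhancers, was at 659.6, 600.4 and 650.5 CPM in Ctrl and at 468.8, 437.8 and 452.9 CPM in cKO. Srsf6, a related SR protein, was at 770.6, 821.4 and 767.1 CPM in Ctrl and at 591.4, 552.7 and 528.6 CPM in cKO. For both genes every cKO library was far below the lowest Ctrl library, with gaps larger than the range within either group. The log2 fold changes were -0.49 ± 0.06 for Srsf5 (SE, adjusted p = 0.00109) and -0.50 ± 0.07 for Srsf6 (adjusted p = 0.00122). Both calls held in each of the 10 alternative fits and without each of the 6 libraries in turn.

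Srsf7, an SR protein with a zinc finger, was at 652.9, 610.9 and 602.3 CPM in Ctrl and at 520.3, 504 and 473.1 CPM in cKO (log2 fold change -0.32 ± 0.06, adjusted p = 0.0115). Srsf3, the smallest SR protein, which couples splicing to polyadenylation and export, was at 845.7, 787.1 and 827.9 CPM in Ctrl and at 693.6, 709.4 and 713.5 CPM in cKO (-0.22 ± 0.06, adjusted p = 0.0387). The groups did not overlap for either gene, but the call of Srsf7 was lost without cKO replicate 2 or 3, and that of Srsf3 without any 1 library other than Ctrl replicate 2. Of the other SR genes, Srsf9 had a log2 fold change of -0.19 (adjusted p = 0.131), Srsf1, Srsf2, Srsf10, Srsf11 and Srsf12 lay between -0.08 and -0.01, and Srsf4 was at 0.04.

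**Figure D3:**
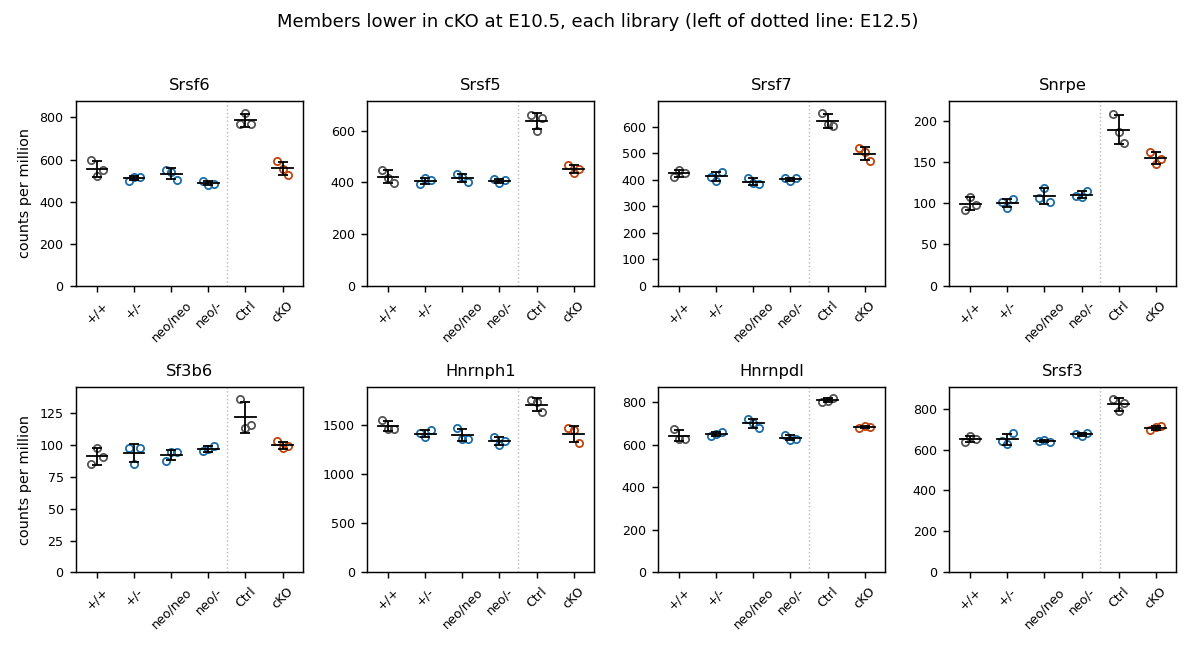
CPM (vertical axis, from 0) of the 8 members called lower in cKO, in each library of the 6 groups, with bars for the mean and SD of 3 libraries. Right of the dotted line every cKO library lies below every Ctrl library, as for Srsf5 with 437.8 to 468.8 against 600.4 to 659.6.

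The promoters of the 4 SR genes called lower in cKO are shown, from 250 bases before to 50 bases after the start of transcription, as RefSeq gives them for GRCm38.p6. The genes were picked by that call, and shared regulation was not tested. Capitals mark letters of 6 motifs that were searched on both strands: E2F (GCGGGAA), ETS (CCGGAAG), NRF1 (GCATGCGC), YY1 (AAGATGGC), NFY (CCAAT) and the E-box (CACGTG).
Srsf3 chr17:29032410-29032709 (+): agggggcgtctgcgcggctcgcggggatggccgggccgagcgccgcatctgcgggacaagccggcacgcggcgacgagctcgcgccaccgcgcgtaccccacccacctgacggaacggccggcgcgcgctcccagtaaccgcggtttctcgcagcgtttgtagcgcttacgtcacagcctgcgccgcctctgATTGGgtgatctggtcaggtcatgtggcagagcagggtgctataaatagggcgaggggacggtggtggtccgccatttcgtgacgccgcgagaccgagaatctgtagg
Srsf5 chr12:80945249-80945548 (+): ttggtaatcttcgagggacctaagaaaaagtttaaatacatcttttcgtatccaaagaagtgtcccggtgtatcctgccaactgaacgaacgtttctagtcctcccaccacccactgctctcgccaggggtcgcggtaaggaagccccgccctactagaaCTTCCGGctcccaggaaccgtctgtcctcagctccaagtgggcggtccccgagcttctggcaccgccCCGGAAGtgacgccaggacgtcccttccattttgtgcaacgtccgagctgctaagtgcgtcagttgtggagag
Srsf6 chr2:162931258-162931557 (+): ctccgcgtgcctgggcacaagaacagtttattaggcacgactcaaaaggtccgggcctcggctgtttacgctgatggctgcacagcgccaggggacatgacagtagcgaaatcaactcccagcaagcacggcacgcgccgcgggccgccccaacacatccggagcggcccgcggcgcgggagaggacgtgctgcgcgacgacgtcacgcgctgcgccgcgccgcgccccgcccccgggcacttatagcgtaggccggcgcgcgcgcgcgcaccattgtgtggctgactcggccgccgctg
Srsf7 chr17:80207256-80207555 (-): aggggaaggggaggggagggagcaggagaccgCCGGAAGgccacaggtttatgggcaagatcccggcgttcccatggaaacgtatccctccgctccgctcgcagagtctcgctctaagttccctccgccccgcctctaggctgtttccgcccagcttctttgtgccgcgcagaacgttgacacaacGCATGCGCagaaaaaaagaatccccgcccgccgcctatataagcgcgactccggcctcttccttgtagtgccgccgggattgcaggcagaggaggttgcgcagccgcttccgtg
The Srsf5 promoter held an ETS motif on each strand, 23 and 90 bases before the start. The Srsf7 promoter held 1 ETS motif 218 bases before the start and 1 NRF1 motif 64 bases before it, and the Srsf3 promoter held 1 NFY motif, read on the minus strand, 58 bases before the start. In the Srsf6 window none of the 6 motifs was found, which says only that these letters are not in these 300 bases. The windows were rich in G and C, from 56.0% in Srsf5 to 70.0% in Srsf6, with 62.7% in Srsf7 and 68.3% in Srsf3. Promoter windows were found for 45 members, and the ETS motif was in 35.6% of these genes against 9.93% of 27025 genes with a window, with 6 of 7 SF3, 4 of 9 Snrp, 4 of 11 SR and 2 of 18 hnRNP genes holding it. The E2F motif was in 17.8% against 5.29%, NRF1 in 6.67% against 3.05%, YY1 in 4.44% against 3.19%, NFY in 48.9% against 41.1%, and the E-box in 13.3% against 8.09%. The 27025 genes were not limited to expressed genes, whereas members had to reach a minimum count, so the 2 sets differ in expression too. A match is a run of letters, and binding was not measured.

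At E12.5 the SR gene with the largest change was Srsf12, an SR-like protein that can act against the other SR proteins. It was at 8.79, 8.47 and 7.36 CPM in Chd8+/+ and at 8.6, 8.19 and 7.72 CPM in Chd8+/-, and fell to 5.22, 4.81 and 6.56 CPM in Chd8neo/neo. Chd8neo/- libraries were at 6.86, 6.45 and 6.67 CPM, a range that overlapped that of Chd8neo/neo. Both neo genotypes were thus below every Chd8+/+ and every Chd8+/- library, and only Chd8neo/neo passed the test (log2 fold change -0.57 ± 0.11, adjusted p = 0.00976), while Chd8neo/- had -0.30 ± 0.11 (adjusted p = 0.0929). The neo genotypes themselves differed by 0.27 ± 0.11 in this gene, which was not called (adjusted p = 0.564). The difference of Chd8neo/neo from Chd8+/- was -0.56 (adjusted p = 0.0187) and was lost without Chd8+/- replicate 1 or Chd8neo/neo replicate 1 or 2. The call against Chd8+/+ held in all 11 alternative fits and without each of the 12 libraries.

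Srsf6 was the other SR gene called at E12.5. It was at 596.3, 519.8 and 551.1 CPM in Chd8+/+ and fell in Chd8neo/- to 497.3, 477.5 and 485.6 CPM (-0.19 ± 0.05, adjusted p = 0.0332). In Chd8neo/neo it was at 552.6, 539.9 and 502.9 CPM, within the range of Chd8+/+ but for the lowest library. The groups did not overlap in Chd8neo/-, but the call was lost without any 1 Chd8neo/- library and without Chd8+/+ replicate 1 or 3. Srsf5, Srsf7 and Srsf3 were not called at E12.5: Srsf5 was at 448.5, 417.8 and 398.6 CPM in Chd8+/+, 431.6, 419 and 402.3 CPM in Chd8neo/neo, and 411, 396.1 and 409.5 CPM in Chd8neo/-.

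**Figure D4:**
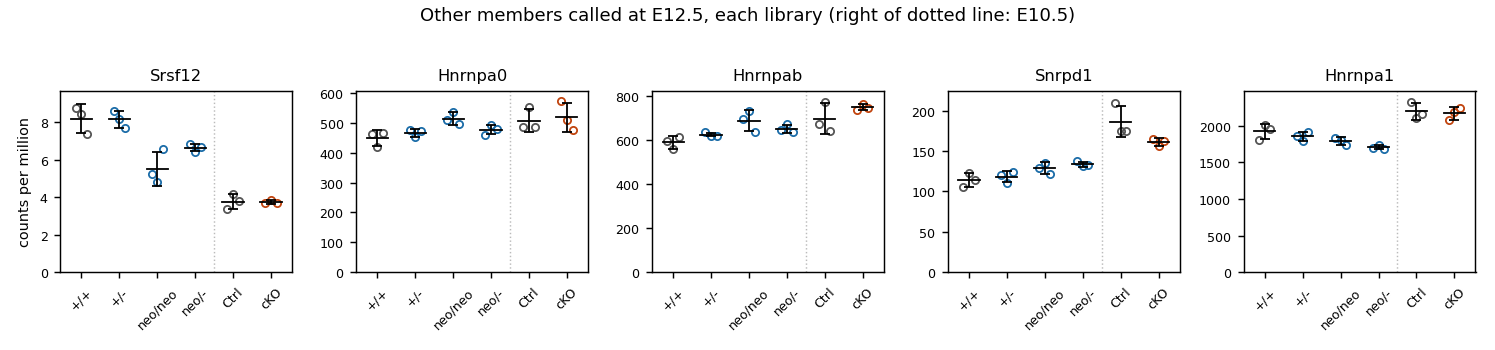
CPM (vertical axis, from 0) of Srsf12, Hnrnpa0, Hnrnpab, Snrpd1 and Hnrnpa1 in each library of the 6 groups, with bars for the mean and SD of 3 libraries. Srsf12 stands at 4.81 to 6.56 in Chd8neo/neo against 7.36 to 8.79 in Chd8+/+, and Snrpd1 at 131.6 to 137.2 in Chd8neo/- against 105.8 to 122.3.

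Of the 20 hnRNP genes, 2 were lower in cKO (5.70% of all genes tested were) and 17 had a negative fold change (median -0.07). Hnrnph1, which binds runs of G in exons and introns, was at 1752, 1733 and 1635 CPM in Ctrl and at 1466, 1445 and 1314 CPM in cKO (-0.28 ± 0.07, adjusted p = 0.0242). Hnrnpdl, a relative of the AU-rich element binding protein hnRNP D, was at 803, 806.7 and 820.2 CPM in Ctrl and at 681.7, 688.4 and 683.9 CPM in cKO (-0.24 ± 0.06, adjusted p = 0.0206). In both genes every cKO library was below every Ctrl library. The call of Hnrnph1 was lost without cKO replicate 2 or 3, and that of Hnrnpdl without any 1 cKO library or Ctrl replicate 3. Hnrnpa2b1 was at 2475, 2401 and 2355 CPM in cKO against 2831, 2740 and 2679 CPM in Ctrl, without overlap, and missed the threshold (-0.19 ± 0.06, adjusted p = 0.0675). Hnrnpul1, named here after its values were seen, was the hnRNP gene with the highest fold change in cKO (0.17 ± 0.06, adjusted p = 0.0872).

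At E12.5 other hnRNP genes passed the test. Hnrnpab, an RNA-binding protein that takes part in mRNA transport in neurons, was at 597.3, 558.9 and 616.9 CPM in Chd8+/+ and rose in Chd8neo/neo to 697.6, 730.5 and 638.1 CPM (0.22 ± 0.05, adjusted p = 0.0262). Hnrnpa0, which binds AU-rich elements, was at 460.8, 420 and 466.8 CPM in Chd8+/+ and rose to 509.6, 536.7 and 494.9 CPM (0.19 ± 0.05, adjusted p = 0.0341). Neither group overlapped its control, and 29.1% of the exon bases of Hnrnpab are shared with other genes, whose reads cannot be set apart. The call of Hnrnpab was lost without Chd8+/+ replicate 2 or Chd8neo/neo replicate 1 or 2. That of Hnrnpa0 was lost without these 3 libraries, without any 1 Chd8neo/- library, and in 5 of 11 alternative fits. In Chd8neo/-, Hnrnpa1 fell from 1810, 2006 and 1960 CPM to 1693, 1734 and 1688 CPM (-0.18 ± 0.05, adjusted p = 0.0345), with every library below the controls. It was at 1837, 1800 and 1733 CPM in Chd8neo/neo, and its call in Chd8neo/- was lost without any 1 Chd8neo/- library and without Chd8+/+ replicate 2 or 3. Hnrnph1 was at 1378, 1294 and 1332 CPM in Chd8neo/- against 1545, 1456 and 1457 CPM in Chd8+/+, without overlap, and missed the threshold (-0.15 ± 0.05, adjusted p = 0.0536).

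The Snrp genes had small fold changes of opposite sign at E12.5 and E10.5. In Chd8neo/neo 10 of 11 had a positive fold change (median 0.13) and in Chd8neo/- 11 of 11 (median 0.12), whereas in cKO 11 of 11 were negative (median -0.19). The Chd8neo/neo median was 0.05 without Chd8+/+ replicate 1 and 0.08 without Chd8neo/neo replicate 2, the Chd8neo/- median was 0.06 without Chd8+/+ replicate 1, and the cKO median was -0.11, with 9 of 11 negative, without Ctrl replicate 1. Few of these genes passed the test singly. In Chd8neo/neo edgeR called 0, and 4 had an unadjusted p under 0.05, as did 4746 of all 18810 genes. DESeq2 called 1 Snrp gene (Snrpc, a U1 protein) and 16.6% of the genes it tested. In Chd8neo/- the only Snrp gene called was Snrpd1, an Sm ring subunit, which rose from 105.8, 122.3 and 114.1 CPM to 137.2, 131.6 and 132.1 CPM (0.23 ± 0.06, adjusted p = 0.0195). Every Chd8neo/- library was above every Chd8+/+ library, but the call was lost without any 1 Chd8neo/- library, without Chd8+/+ replicate 1 or 3, and when the trend of each library with gene length was removed.

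In cKO the only Snrp gene called was Snrpe, another subunit of the Sm ring, which fell from 208.1, 186.9 and 173.1 CPM to 162.8, 148 and 153.2 CPM (-0.29 ± 0.07, adjusted p = 0.0273). The groups did not overlap, and the call was lost without Ctrl replicate 1 or without cKO replicate 2 or 3. Snrpd1 was at 165.2, 155.8 and 162.4 CPM in cKO against 208.8, 175.2 and 175.2 CPM in Ctrl, again without overlap (-0.21 ± 0.07, adjusted p = 0.0894). An unadjusted p under 0.05 was found for 7 of the 11 Snrp genes, and for 5049 of all 18435 genes. Ctrl replicate 1 was the highest of the 3 Ctrl libraries for each of the 11 genes. Snrp genes are short, and with each library's trends with gene length and GC content removed, an alternative added after the data were seen, the cKO median was -0.08 with 9 of 11 negative, the Chd8neo/- median 0.08 with 9 of 11 positive, and the Chd8neo/neo median 0.08 with 10 of 11 positive. Of the exon bases of Snrpf, 85.4% are shared with a gene on the opposite strand, and the counting did not use strand.

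The 9 SF3 genes were the family with the most positive fold changes in cKO, 6 of 9 (median 0.05). The exception that passed the test was Sf3b6, the small subunit that lies against the branch-point adenosine. It fell from 135.9, 113.2 and 115.7 CPM in Ctrl to 102.8, 97.55 and 99.12 CPM in cKO, without overlap (-0.28 ± 0.07, adjusted p = 0.0299), and the call was lost without any 1 cKO library or Ctrl replicate 3. Sf3a1, the largest SF3A subunit, had the highest fold change of the family, with 256.4 CPM in its lowest cKO library against 202.2, 251.5 and 216 CPM in Ctrl (0.24 ± 0.08, adjusted p = 0.0686), and it is named here after its values were seen. At E12.5 edgeR called 0 of 9 SF3 genes in either neo genotype. In Chd8neo/neo 4 had an unadjusted p under 0.05 and DESeq2 called 0, and in Chd8neo/- 3 did and DESeq2 called 1, Sf3b1. Of all 18810 genes, 4746 had such a p in Chd8neo/neo and 4991 in Chd8neo/-. Sf3b1 was at 633.1, 636.4 and 639.8 CPM in Chd8neo/- and at 674, 717 and 697.3 CPM in Chd8+/+, without overlap (-0.13 ± 0.04, adjusted p = 0.0609).

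Whether the effect in cKO differed from that in the E12.5 mutants was tested in a fit of all 18 libraries, which have separate controls at each stage. Against the Chd8neo/neo effect, 6 members differed (6.80% of 19565 genes did), 5 of them lower in cKO (3.16%) and 1 higher (3.64%). Against the Chd8neo/- effect, 8 members differed (6.79%), all lower in cKO (2.89%). In both, Srsf5, Srsf6, Snrpd1, Snrpe and Hnrnpdl were among them. The call of Hnrnpdl against the Chd8neo/- effect held in 2 of 5 alternative fits and without 4 of the 18 libraries only. For Srsf5 the effects differed by -0.48 ± 0.08 from Chd8neo/neo (adjusted p = 0.00108) and by -0.44 ± 0.08 from Chd8neo/- (adjusted p = 0.00274). For Snrpd1 they differed by -0.39 ± 0.10 (adjusted p = 0.0229) and -0.44 ± 0.10 (adjusted p = 0.0117), with a positive effect in both E12.5 mutants and a negative one in cKO. Snrpe differed by -0.43 ± 0.10 (adjusted p = 0.0199) and -0.45 ± 0.10 (adjusted p = 0.0159).

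Srsf12 was the gene whose E12.5 effect was the lower, with a difference of 0.56 ± 0.16 from Chd8neo/neo (adjusted p = 0.0401). This call of Srsf12 held without 7 of the 18 libraries only. Srsf12 was at 3.36, 4.18 and 3.79 CPM in Ctrl and at 3.68, 3.87 and 3.71 CPM in cKO. Sf3b6, Srsf3 and Snrpb2, a U2 protein, differed from the Chd8neo/- effect. The call of Snrpb2 was lost in 4 of 5 alternative fits and that of Srsf3 in 2. The count against Chd8neo/neo was 3 without Chd8neo/neo replicate 2 or without cKO replicate 2, where 4.07% and 3.13% of all genes differed. The count against Chd8neo/- was 2 without cKO replicate 2, 3 without Chd8neo/- replicate 1 or 3, 4 without Chd8+/+ replicate 3 or cKO replicate 3, and 5 without Chd8neo/- replicate 2 or Ctrl replicate 1. Of all genes, 2.68% differed without cKO replicate 2, and between 3.23% and 3.95% in the other fits named. Srsf5 was kept in both without each of the 18 libraries. Age, tissue, allele and pooling differ between these experiments, so none of them can be told apart as the source of a difference.

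**Figure D5:**
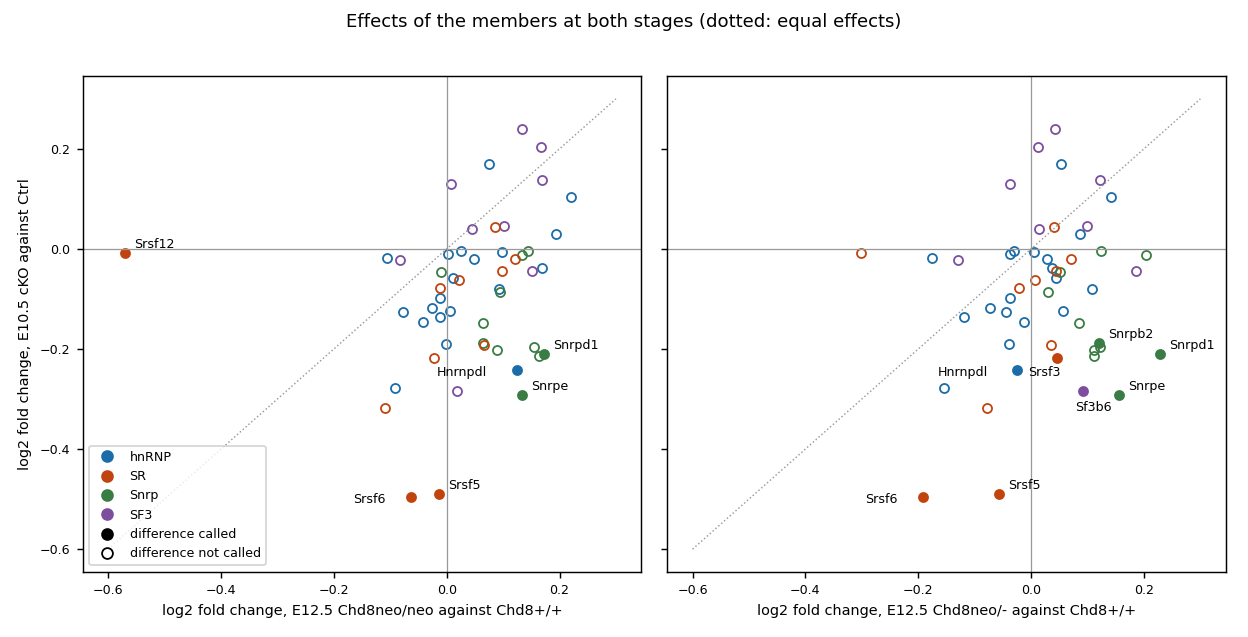
Log2 fold change of each member in cKO against Ctrl (vertical axis) and in Chd8neo/neo (left) or Chd8neo/- (right) against Chd8+/+ (horizontal axis), coloured by family, with filled points where the effects differed (6 and 8 genes) and a dotted line for equal effects. Srsf5 and Srsf6 lie at -0.49 and -0.50 on the vertical axis, and Srsf12 stands alone at -0.57 on the left.

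Properties of the genes that the choice of members did not use were also read from the annotation (GENCODE M21, GRCm38). A transcript marked for nonsense-mediated decay was annotated for 47.1% of members and 21.4% of the 18810 genes tested at E12.5, and for 9 of 11 SR, 10 of 20 hnRNP, 4 of 11 Snrp and 1 of 9 SF3 genes. Each of Srsf3, Srsf5, Srsf6 and Srsf7 had at least 1, and Srsf12 had none. Transcripts with a retained intron were annotated for 74.5% of members against 44.9%. The 18810 genes were not matched to the members in level or in number of annotated transcripts, and the part of these in the shares was not tested. Gene counts do not separate such transcripts, so a change of isoform was not measured. Across the members, GC content and the log2 fold change had a Spearman rho of 0.59 in cKO, 0.48 in Chd8neo/neo and 0.30 in Chd8neo/-, against 0.19, 0.11 and 0.04 over all genes, a description over 51 genes of the same libraries. The 4 lower SR genes had exonic GC contents of 40.1% (Srsf5) to 42.8% (Srsf6). With the trends with length and GC content removed, 4 of the 8 members kept their call in cKO, namely Srsf5, Srsf6, Srsf7 and Hnrnpdl, while Srsf3 (-0.16), Snrpe (-0.17), Sf3b6 (-0.15) and Hnrnph1 (-0.19) lost it with fold changes that were still negative. The part of GC content in the counts was not tested further. None of the 8 shares exon bases with another annotated gene.

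The rest of the splicing machinery was read from 9 lists with 108 genes, all of them tested, of which 8 were higher and 3 lower in Chd8neo/neo, 11 and 5 in Chd8neo/-, and 7 and 12 in cKO. Over all genes tested, 3.71% were higher and 4.45% lower in Chd8neo/neo, 5.48% and 5.99% in Chd8neo/-, and 5.75% and 5.70% in cKO. Whether the lists differ from all genes in these shares was not tested. Among 18 SR-related proteins and SR kinases, the kinases Clk1 and Clk4, which phosphorylate SR proteins in the nucleus, and Luc7l, a partner of U1, were called lower in Chd8neo/neo, Chd8neo/- and cKO. Clk1 was at 169.9, 171.4 and 163 CPM in Chd8+/+, 129.6, 126.4 and 142 CPM in Chd8neo/neo, and 140.6, 143 and 145.5 CPM in Chd8neo/-. At E10.5 it was at 198, 184.7 and 197.8 CPM in Ctrl and at 133.3, 131.1 and 125.5 CPM in cKO. No library of these 3 mutant groups overlapped its controls. The log2 fold changes were -0.34 ± 0.05 in Chd8neo/neo (adjusted p = 0.00161), -0.23 ± 0.05 in Chd8neo/- (adjusted p = 0.00558) and -0.57 ± 0.06 in cKO (adjusted p = 0.000231). The cKO effect on Clk1 was the larger, by -0.24 ± 0.07 (adjusted p = 0.0485) and -0.34 ± 0.07 (adjusted p = 0.00735). Clk4 had log2 fold changes of -0.36, -0.29 and -0.50 in the same order, and Luc7l of -0.24, -0.31 and -0.27. In Chd8+/-, 0 of the 108 genes were called. There Luc7l had -0.19 (adjusted p = 0.469), Clk4 -0.13 (adjusted p = 0.79) and Clk1 -0.04 (adjusted p = 0.939). Luc7l was at 176.4, 168.3 and 174.4 CPM in Chd8+/- against 210.7, 190.4 and 190 CPM in Chd8+/+, without overlap. Of the rest of this list, Tra2b, an SR-like splicing activator, was lower in Chd8neo/- (-0.17, adjusted p = 0.0482) and Luc7l3 in cKO (-0.29, adjusted p = 0.0109). Clk1 and Clk4 kept their calls in every alternative fit and without each library, and the call of Luc7l in cKO held without 3 of the 6 libraries.

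Of the 7 Lsm genes, whose ring sits on U6, Lsm4 was called higher in Chd8neo/neo, Chd8neo/- and cKO (0.34, 0.27 and 0.28), the last call holding without 1 of 6 libraries only. Lsm2 was also higher in Chd8neo/neo (0.21), Lsm3 and Lsm8 in Chd8neo/- (0.21 and 0.19), and Lsm5 was lower in cKO (-0.29). In the tri-snRNP list of 16 genes, the helicase Ddx23 (0.37), the GTPase Eftud2 (0.33) and the scaffold Prpf8 (0.23) were higher in cKO, and Cd2bp2 was lower (-0.26), while Ppih and Prpf38a were higher in Chd8neo/- (0.25 and 0.16). Ddx23 went from 135.6, 127.2 and 126.4 CPM in Ctrl to 159.2, 171.3 and 170.9 CPM in cKO, and this effect exceeded that in both E12.5 mutants, by 0.29 (adjusted p = 0.00993) and 0.32 (adjusted p = 0.00642).

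Of 8 exon junction complex genes, 3 were lower in cKO (5.70% of all genes were): Magohb, which was at 20.07, 18.38 and 16.5 CPM in Ctrl and at 13.07, 11.73 and 12.13 CPM in cKO (-0.57 ± 0.09, adjusted p = 0.00419), its paralogue Magoh (-0.27, adjusted p = 0.0499) and Upf3b, which links the complex to decay (-0.25, adjusted p = 0.0173). Magoh and Magohb are near-identical copies whose reads may be split between them, and the call of Magoh held without 1 of the 6 libraries only. Alyref, an export adaptor, was higher in Chd8neo/neo (0.16). Of 24 genes of the Prp19 complex and activation, Dhx16 was higher in Chd8neo/neo (0.31) and Chd8neo/- (0.24), Syf2 in Chd8neo/- (0.20), and Ctnnbl1, Dhx38 and Dhx8 in cKO (0.28, 0.26 and 0.23). Of 9 genes of the minor spliceosome, Snrnp35 was higher in Chd8neo/neo (0.27), Snrnp25 and Scnm1 in Chd8neo/- (0.24 and 0.28), and Rnpc3 and Zcrb1 were lower in cKO (-0.30 and -0.29). Single genes of the remaining lists were called: Rbm17 of 9 branch-point and 3' splice site genes was higher in Chd8neo/neo (0.16) and Chd8neo/- (0.14), and of 13 genes of Sm ring assembly, Smn1 was higher in Chd8neo/neo (0.17) and Gemin7 in Chd8neo/- (0.20). Of the 4 other Snrnp genes, Snrnp40 was higher in Chd8neo/neo (0.15), Snrnp200 lower in Chd8neo/- (-0.18) and Snrnp27 lower in cKO (-0.26). Several of these calls on single genes of the lists were lost when 1 library was left out. In Chd8neo/neo, those of Lsm2, Snrnp40 and Smn1 held without 2 of the 12 libraries only and that of Alyref without 3. In Chd8neo/- those of Lsm3 and Tra2b held without 4 of the 12 and that of Prpf38a without 6. Those of Snrnp200, Rbm17, Lsm8, Syf2, Gemin7 and Snrnp25 in Chd8neo/- held without 7. In cKO, those of Lsm5, Prpf8 and Snrnp27 held without 1 of the 6 libraries only, that of Dhx38 without 2, and those of Cd2bp2, Dhx8 and Rnpc3 without 3. With the trends with length and GC content removed, the calls of Lsm5 and Magoh were lost too, with log2 fold changes of -0.08 and -0.11. At E12.5 several calls were also lost in alternative fits. In Chd8neo/neo, those of Snrnp40 and Lsm2 held in 3 of 11 fits only, that of Smn1 in 4, and those of Rbm17 and Snrnp35 in 6. In Chd8neo/-, that of Tra2b held in 5 of 11 fits, and those of Rbm17 and Lsm3 in 6.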

How the data were processed

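The authors sequenced mRNA as 75 bp pairs, used Trim Galore for trimming, TopHat for alignment (GRCm38) and featureCounts for counting on Ensembl genes, without using strand. The values they deposited are raw counts per gene and run, and all columns were used. The 2 runs of each library were summed (36 runs, 18 libraries). Gene identifiers were given symbols from the reference gene table, which had 46005 of 46603. The members, gene lists and tests were chosen with earlier results of these data known.

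Counts were analysed with edgeR 4.0.16 in R 4.3.3 (filterByExpr, TMM, robust quasi-likelihood test, Benjamini-Hochberg over all genes tested, called under 0.05), in 1 fit of the 12 libraries at E12.5, 1 of the 6 at E10.5, and 1 of all 18 for differences between effects. The fits were tested on simulated counts first. DESeq2 1.42.0 and limma 3.58.1, which edgeR needs, were also loaded. CPM values are scaled by TMM within each stage, unless a sentence names all 18 libraries. Errors of fold changes are SE, and those of levels SD.

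Named were Chd8, members called in any comparison, the member with the highest CPM of each family, the 3 members with the smallest p in Chd8neo/neo, Chd8neo/- and cKO, and the genes of each other list with the smallest p. The methods state that replicates came from different litters. Deviations of same-numbered libraries correlated by 0.11, 0.20 and 0.20 in Chd8neo/neo and Chd8+/-. In each other comparison at least 1 pair correlated by less than 0.1. The labels do not say that a number marks a pair, so the number was taken as a name only. Alternatives were another tool, scaling or filter, 1 run, sex or a Y-linked share as a covariate, length and GC offsets, a replicate block, fewer groups and leaving out each library. Promoters came from RefSeq (GRCm38.p6), and 6 members had none there. Protein sequences were not used here.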

Additional observations from a re-analysis of the deposited data

Results flagged for a closer look

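A test of the difference between effects at E10.5 and E12.5, in 1 fit of all 18 libraries, separated 9 members in 14 results. Values are the cKO effect minus the E12.5 effect on the log2 scale, from edgeR with adjusted p. Against the Chd8neo/neo effect, the difference was -0.48 for Srsf5 (adjusted p = 0.00108), -0.43 for Srsf6 (0.00359), -0.37 for Hnrnpdl (0.00171), -0.43 for Snrpe (0.0199), -0.39 for Snrpd1 (0.0229) and 0.56 for Srsf12 (0.0401). Hnrnpdl combines a positive value in Chd8neo/neo with a lower level in cKO, while Srsf12 is low in Chd8neo/neo and at about its control level in cKO. Against the Chd8neo/- effect, the difference was -0.44 for Srsf5 (0.00274), -0.31 for Srsf6 (0.028), -0.22 for Hnrnpdl (0.0404), -0.45 for Snrpe (0.0159), -0.44 for Snrpd1 (0.0117), -0.31 for Snrpb2 (0.045), -0.38 for Sf3b6 (0.0283) and -0.27 for Srsf3 (0.022). The E12.5 sides of both sets share the Chd8+/+ libraries and the cKO sides share all E10.5 libraries, so the sets are not separate evidence. Against the Chd8neo/- effect, the calls of Hnrnpdl and Snrpb2 held without 4 and 8 of the 18 libraries only. That of Srsf12 against the Chd8neo/neo effect held without 7. Groups of 3 libraries were not screened for single outlying samples.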

How the results depend on the processing

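No called member changed direction in any alternative. Numbers below are counts of called members, with the share of all genes tested where it is given. No such shares are given for the thresholds 0.1 and 0.01. In Chd8neo/neo against Chd8+/+ (3 called), an adjusted p under 0.1 or 0.01 gave 6 or 1, DESeq2 gave 5 and a fit of the 2 groups alone gave 1. Of all genes, DESeq2 called 16.6% and the 2 groups alone 2.35%. In Chd8neo/- against Chd8+/+ (3 called), the same thresholds gave 8 or 0, and DESeq2, upper quartile scaling, the 2 groups alone, sex as a covariate and the length and GC offset gave 5 each. These fits called 18.1%, 11.6%, 14.7%, 10.2% and 9.3% of all genes, in that order. In Chd8neo/neo against Chd8+/- (1 called), the thresholds gave 4 or 0, DESeq2 and the length and GC offset gave 2 each and the 2 groups alone gave 0. The fits called 11.9%, 2.28% and 0.232% of all genes, in that order. In Chd8neo/- against Chd8+/- (0 called), an adjusted p under 0.1 gave 2, DESeq2 1, the 2 groups alone 4, the length offset 1 and the length and GC offset 2. From DESeq2 on, these called 12.3%, 8.3%, 3.03% and 3.29% of all genes. In cKO (8 called), the thresholds gave 13 or 2 and the length and GC offset 4, with 11.9% of all genes called under this offset. For the difference from Chd8neo/- (8 called), RLE scaling and no filter on low counts gave 5 each, with 6.26% and 3.45% of all genes called. The offset for length with GC content and the Y-linked share were chosen after seeing the data. The causes were not tested.

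With the replicate number as a replicate block, cKO had 14 called members, 2 higher and 12 lower, and Chd8neo/neo against Chd8+/- kept 1. Of all genes, 14.1% were called with the block in cKO and 3.04% in Chd8neo/neo against Chd8+/-. The labels do not pair the samples by number in either comparison. The block moved no other count by over 1.5 times.

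Leaving out 1 library gave 0 to 0 for Chd8+/- against Chd8+/+, 1 to 6 for Chd8neo/neo, 0 to 5 for Chd8neo/-, 0 to 3 for Chd8neo/neo against Chd8+/-, 0 to 0 for both other E12.5 pairs, 2 to 11 for cKO, 3 to 9 for the difference from Chd8neo/neo and 2 to 12 for that from Chd8neo/-. The share of all genes called moved too, in cKO from 2.87% without cKO replicate 2 to 13.2% without Ctrl replicate 2. With 3 libraries a group, log2 changes of about 0.2 lay near the threshold.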
